A study of Homo sapiens with 16 samples.

Results

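RPMI8226, KMS-11 and U266 are established human lines of multiple myeloma, the cancer in which plasma cells multiply, and together they gave 12 of the 16 arrays of the series. The remaining 4 arrays are of IM-9, a B lymphoid line that is used here only for comparison. Each line was grown as parental cells at 20% oxygen and as a hypoxia-resistant (HR) derivative at 1% oxygen, both for 24 hours, and total RNA was hybridised to Affymetrix arrays. This gave 6 myeloma groups of 2 arrays each: RPMI8226 parental and RPMI8226-HR, KMS-11 parental and KMS-11-HR, and U266 parental and U266-HR. HR cells have no array at 20% oxygen and parental cells none at 1%; resistance therefore cannot be told apart from the oxygen that the cells grew in. How the HR lines were selected, and whether each is a single clone, is not given in the sources used here.

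The question was which genes the HR cells of the 3 myeloma lines moved in the same direction. Of the 12390 genes bright enough to test, 62 were called higher in HR cells in each of the lines (0.5% of the genes) and 35 were called lower in each (0.282%). These 97 genes are called shared here. Their choice rests on 3 tests within lines, each with a Benjamini-Hochberg adjusted p under 0.05 in limma and the same sign, and the counts say nothing of which line changed most.

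Cells short of oxygen stabilise the hypoxia-inducible factors (HIF), transcription factors that prolyl hydroxylases mark for destruction when oxygen is present. HIF binds short DNA elements and raises genes for glucose uptake, glycolysis, the shunting of pyruvate away from mitochondria, the removal of mitochondria, vessel growth and the hydroxylation of collagen. Myeloma cells live in bone marrow, where oxygen is low, and as secretory cells they also depend on endoplasmic reticulum (ER) chaperones that fold antibody.

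Over all probe sets, r was 0.995 to 0.996 within groups, 0.989 to 0.995 from HR to parental arrays within a line, and 0.915 to 0.943 from one line to another. The plasma cell genes IRF4 (group means 10.46 to 11.38 on the log2 intensity scale), XBP1 (11.09 to 11.39), PRDM1 (9.41 to 10.86) and SDC1 (7.90 to 10.14) were above the filter level of 6.27 in all 6 groups, and 12 to 15 of the 19 plasma cell markers were above it in each group. CD38 was above it in 2 of the 6 groups only. Of the markers of other cells, 0 or 1 of 11 myeloid, 2 to 4 of 14 T and NK cell, 3 to 6 of 13 stromal and 5 to 9 of 16 B cell markers were above it. Of the defining markers, the T cell receptor component CD3D lay between 4.60 and 5.07 and the myeloid enzyme LYZ between 3.72 and 3.99, but CD7 (7.32 to 7.96) and VIM (9.07 to 12.53) were above the filter level in all 6 groups, CD8B (up to 11.36) and CD68 (up to 8.52) in 5 and FN1 (up to 13.06) in 4. Summed over the B cell markers, log2 levels moved from between 112 and 113 in the parental arrays of RPMI8226 to 107 in its HR arrays, with CR2 alone at −3.58, and in U266 from between 89.6 and 91.1 to between 93.9 and 94.1. The plasma cell sum moved from 158 to 163 in RPMI8226. The part of these markers in the results was not tested. Whether a group's 2 arrays stand for separate cultures is not in the labels, and the p-values within lines then measure only their spread, which may be technical.

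The mitophagy gene BNIP3 and the glycolytic regulators PFKFB4 and PFKFB3 were among the largest shared rises. BNIP3, a receptor on the outer mitochondrial membrane that marks mitochondria for removal by autophagy, rose by 1.67, 2.05 and 2.05 in RPMI8226, KMS-11 and U266 (HR minus parental on the log2 scale, ± 0.06 SE each, 2 arrays per group), or 3.18-fold, 4.15-fold and 4.15-fold. It was the gene with the smallest p-value across lines. Besides BNIP3, 7 genes rose by at least 2-fold in each line: PFKFB4, PFKFB3, NDRG1, P4HA1, AK4, BHLHE40 and ALDOC. Over the 62 rises the median change, averaged over lines, was 0.77, against −0.02 over all genes tested, and single genes ranged from 0.31 to 2.88. The rises lay on 19 chromosomes. The HR arrays lay above the parental arrays in each line for all 62, which the choice makes likely and which is only a description, and for 2.61% of all genes tested.

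The promoters of 3 of these rises are shown as examples of the core HIF element, ACGTG or GCGTG, and were picked after their values and letters were seen. Of the 10 genes with the smallest p-values for a rise across lines, 9 hold at least 1 copy and ANXA1 holds 0. At least 1 copy was also found in 57.3% of the matched promoters of the genes tested, 71.2% of the rises' and 60.0% of the falls'. BNIP3 had the smallest p-value, ANKRD37 changed by close amounts in the lines, and ZNF292 is in no list. The windows are the 250 bases before the RefSeq gene start (GRCh38.p14), 5′ to 3′ on the gene's own strand, and capitals mark each copy of ACGTG or GCGTG on either strand, so that CACGT and CACGC are copies on the opposite strand and CACGTG is a copy on both.
BNIP3, chr10:131981924-131982173, reverse strand: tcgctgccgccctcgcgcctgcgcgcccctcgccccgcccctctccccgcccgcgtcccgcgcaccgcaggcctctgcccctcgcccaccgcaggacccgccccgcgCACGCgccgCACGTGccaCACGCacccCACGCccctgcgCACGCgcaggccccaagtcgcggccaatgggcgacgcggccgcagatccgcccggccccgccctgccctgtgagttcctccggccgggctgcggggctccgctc
ANKRD37, chr4:185396591-185396840, forward strand: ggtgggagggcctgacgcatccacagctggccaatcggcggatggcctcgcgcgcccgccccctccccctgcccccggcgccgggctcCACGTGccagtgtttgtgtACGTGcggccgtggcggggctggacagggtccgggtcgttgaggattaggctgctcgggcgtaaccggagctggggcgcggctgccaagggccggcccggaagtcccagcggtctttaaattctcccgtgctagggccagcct
ZNF292, chr6:87155315-87155564, forward strand: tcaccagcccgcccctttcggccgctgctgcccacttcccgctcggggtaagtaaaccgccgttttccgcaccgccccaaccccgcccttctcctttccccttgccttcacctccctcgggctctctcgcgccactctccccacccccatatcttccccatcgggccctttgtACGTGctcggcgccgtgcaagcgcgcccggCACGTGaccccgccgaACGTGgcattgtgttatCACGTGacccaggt

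The BNIP3 promoter holds 5 stretches in capitals, of which 1 is CACGTG. That of ANKRD37, an ankyrin repeat gene known to be induced by HIF, holds 2, and that of ZNF292, a zinc finger gene of no HIF list, holds 4, of which 2 are CACGTG. RefSeq promoters were matched for 52 of the 62 rises and 30 of the 35 falls. ACGTG on either strand was found in 42.3% of the rises' promoters (22 of 52), in 23.3% of the falls' (7 of 30), in 23.4% of those of the genes tested and in 18.7% of all 27305 promoters. Among the rises outside the HIF list the share was 33.3% (11 of 33), and within it 57.9% (11 of 19). The rises outside the list include the glycolysis genes ALDOC, GPI, LDHA and PGK1, so this split is by list and not by HIF control. The palindrome CACGTG, which overlaps ACGTG on both strands and is also bound by other factors, was found in 23.1% of the rises' promoters, in 0 of the 30 of the falls and in 9.02% of those of the genes tested. GCGTG was found in 51.9% of the promoters of the rises, in 15 of the 30 of the falls and in 45.2% of those of the genes tested. The median GC content was 67.4% for the rises, 65.4% for the falls and 65.2% for the genes tested, and a match describes letters, not a bound site.

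**Figure D1:**
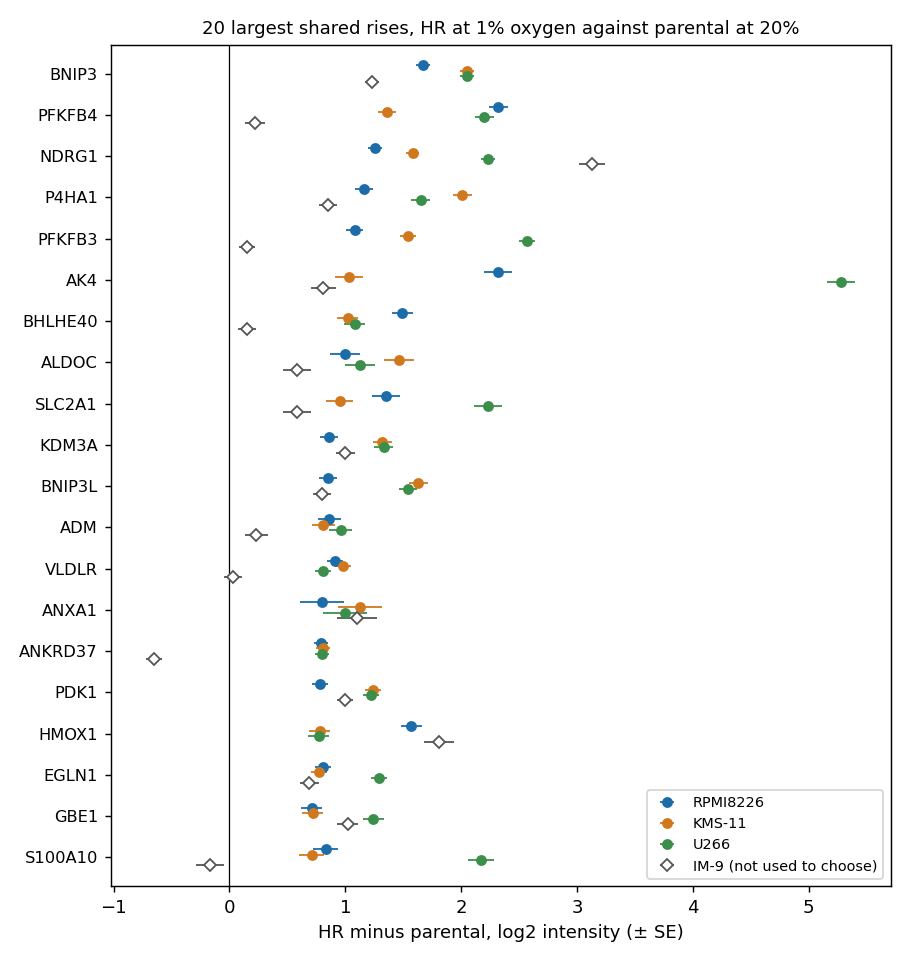
HR minus parental change (log2 intensity, ± SE from limma) of the 20 rises whose smallest change over the myeloma lines was largest, with a point for each line and an open diamond for IM-9, which took no part in the choice. All myeloma points lie to the right of 0; AK4 in U266 reaches 5.28, and ANKRD37 lies at −0.65 in IM-9.

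The levels behind the leading rises were well separated. BNIP3 read 8.02 and 8.07 in the parental arrays of RPMI8226 and 9.70 and 9.72 in its HR arrays. In KMS-11 it read 6.87 and 6.78 against 8.87 and 8.89, and in U266 8.95 and 8.93 against 10.99 and 10.99. All 6 HR arrays lay above the parental arrays of their own line, but the HR level of KMS-11 was still below the parental level of U266. Its relative BNIP3L, also a mitophagy receptor, rose by 0.85, 1.63 and 1.54 (± 0.08). The list of 20 tested mitophagy and mitochondrial dynamics genes held no further shared gene and had a median of −0.01.

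Glycolysis genes were well represented among the rises. Of the 21 tested glycolysis genes, 8 rose in all 3 lines and 0 fell in all 3, with a list median of 0.50 against −0.02 over all genes; in RPMI8226 9 were called higher (11.2% of all genes were), in KMS-11 13 (2.8%) and in U266 14 (10.2%). The 8 lie between glucose uptake and lactate. The glucose transporter SLC2A1 rose by 1.35, 0.95 and 2.23 (± 0.12) and the hexokinase HK2, which traps glucose in the cell, by 0.72, 0.52 and 3.06 (± 0.13). GPI, which makes fructose 6-phosphate, rose by 0.51, 0.27 and 1.02 (± 0.06), and the aldolase ALDOC by 1.00, 1.46 and 1.13 (± 0.13). PGK1, the first step to return ATP, rose by 0.26, 0.53 and 0.72 (± 0.06), and LDHA, which turns pyruvate into lactate, by 0.37, 0.39 and 0.52 (± 0.06).

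The largest shared changes in this group belonged to the regulators PFKFB4 and PFKFB3, whose product fructose 2,6-bisphosphate switches on phosphofructokinase. PFKFB4 read 6.28 and 6.22 in the parental arrays of RPMI8226 and 8.49 and 8.65 in its HR arrays, 5.96 and 6.10 against 7.37 and 7.41 in KMS-11, and 6.89 and 7.06 against 9.17 and 9.17 in U266. It went from near the filter level to well above it, by 4.99-fold, 2.57-fold and 4.59-fold. PFKFB3 read 7.84 and 7.83 against 8.85 and 8.99 in RPMI8226, 7.80 and 7.82 against 9.36 and 9.34 in KMS-11, and 6.49 and 6.35 against 9.02 and 8.96 in U266. U266 had the lowest parental level of PFKFB3 and an HR level close to those of the other lines. The housekeeping step GAPDH was at −0.02, −0.01 and 0.05 (± 0.07) and passed in no line. LDHA and PGK1 have near-identical copies elsewhere in the genome and ALDOAP2, also among the rises, is annotated as a pseudogene of aldolase A, so their values may hold signal of relatives.

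Neighbouring routes of glucose moved through single genes. PDK1, the kinase that shuts the pyruvate dehydrogenase gate into mitochondria, rose by 0.78, 1.24 and 1.22 (± 0.07), while the other 21 tested genes of that gate and the tricarboxylic acid cycle were never called the same way in all 3 lines (list median −0.09). GBE1, the branching enzyme of glycogen, rose by 0.71, 0.72 and 1.24 (± 0.09), and PGM1, which links glucose 1-phosphate and 6-phosphate, by 0.75, 0.36 and 0.56 (± 0.06). They were 2 of 12 tested glycogen genes, and the other 10 were not shared (list median −0.03). Of the 28 tested nuclear genes of oxidative phosphorylation 0 were called in all 3 lines, and 12 had a negative sign in each (list median −0.09; 16.4% of all genes had a negative sign in each line).

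Among oxygen sensors, the prolyl hydroxylase EGLN1 was shared and its relative EGLN3 was not. EGLN1, which marks HIF-alpha for destruction, rose by 0.81, 0.77 and 1.29 (± 0.07). EGLN3 rose by 3.61 in RPMI8226 and 2.33 in U266 (± 0.10), and in KMS-11 it read 5.98 and 5.80 in parental and 6.08 and 5.90 in HR arrays, a change of 0.10 from levels below the filter. The 3 effects on EGLN3 differed from each other by the F test in limma (adjusted p = 1.29e-07). The transcripts of the HIF-alpha subunits themselves were not shared upward: HIF1A was at 0.01, 0.10 and −0.67 (± 0.09, called in U266 only), and EPAS1 at −1.47, 0.14 and 0.04 (± 0.11, called in RPMI8226 only). Other dioxygenases that use oxygen as a substrate rose in all 3 lines. These were the histone H3 lysine 9 demethylases KDM3A and KDM4B and the RNA demethylase ALKBH5, 3 of 22 tested members of their list, with P4HA1 and PLOD1, which hydroxylate proline and lysine of collagen.

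KDM3A read 8.60 and 8.83 in the parental arrays of RPMI8226 and 9.51 and 9.65 in its HR arrays, 9.01 and 9.04 against 10.35 and 10.34 in KMS-11, and 8.63 and 8.63 against 9.95 and 9.98 in U266. KDM4B rose by 0.52, 0.46 and 0.43 (± 0.08) and ALKBH5 by 0.28, 0.26 and 0.38 (± 0.07), the latter keeping its call in only 4 of the 12 fits that left out an array. P4HA1 rose by 1.16, 2.01 and 1.65 (± 0.08) and PLOD1 by 0.95, 0.61 and 0.89 (± 0.08). Their relatives P4HA2 and PLOD2 rose in KMS-11 (0.61 and 0.94) and U266 (0.82 and 1.74) but were at −0.05 and 0.12 in RPMI8226, where PLOD2 lay between 3.35 and 3.68, far under the filter level. The F test found the effects on P4HA2 and PLOD2 to differ between lines (adjusted p = 4.43e-05 and 1.53e-05).

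Some of the rises encode secreted factors or receptors; they were picked out after their values were seen and belong to no list of their own. Adrenomedullin (ADM), a vasodilating peptide, read 7.70 and 7.85 in the parental arrays of RPMI8226 and 8.55 and 8.72 in its HR arrays, 6.86 and 6.92 against 7.63 and 7.77 in KMS-11, and 8.09 and 8.12 against 9.21 and 8.92 in U266. The change was of like size everywhere, 0.86, 0.81 and 0.96 (± 0.10). PAM, the enzyme that amidates and so activates peptides such as adrenomedullin, rose by 0.46, 0.51 and 2.29 (± 0.07). The vessel growth factor VEGFA rose by 0.75, 0.83 and 0.55 (± 0.06), the glycoprotein hormone STC2 by 0.83, 0.55 and 0.78 (± 0.10), and the Wnt ligand WNT10A by 0.50, 0.50 and 0.49 (± 0.11). Of receptors, the lipoprotein receptor VLDLR rose by 0.91, 0.98 and 0.81 (± 0.07), the chemokine receptor CCR1 by 0.42, 0.92 and 0.54 (± 0.08), and the complement receptor C3AR1 by 1.37, 0.57 and 1.43 (± 0.10). VLDLR stayed under the filter level in RPMI8226, with 5.01 and 4.96 in parental and 5.96 and 5.84 in HR arrays, and C3AR1 did so in KMS-11, so these changes rest on dim probe sets. STC2 was above the filter level in 4 of the 6 groups and PAM in 5.

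Stress and growth restraint genes were represented by DDIT4, TXNIP and HMOX1. DDIT4, an inhibitor of mTOR complex 1, read 7.20 and 7.27 against 8.35 and 8.72 in RPMI8226, 7.19 and 7.07 against 9.09 and 9.10 in KMS-11, and 8.69 and 8.63 against 9.35 and 9.34 in U266. Its HR arrays lay above the parental ones in each line, most widely in KMS-11 (1.96 ± 0.10). TXNIP, which binds thioredoxin and restrains glucose uptake, rose by 0.58, 1.59 and 2.62 (± 0.07). DDIT4 and TXNIP were 2 of 24 tested genes of growth arrest and mTOR restraint; the other 22 were not shared, among them MXI1, a MYC antagonist, at −0.04, 0.76 and 0.82 (± 0.09). HMOX1, which breaks down heme, rose by 1.57, 0.78 and 0.77 (± 0.09) and was the only shared gene of 19 tested NRF2 and heme genes. The transcriptional repressor BHLHE40 rose by 1.49, 1.02 and 1.08 (± 0.09). The membrane-binding protein genes ANXA1 (0.80, 1.13 and 1.00, ± 0.19) and S100A10 (0.83, 0.71 and 2.17, ± 0.11) rose as well; for ANXA1, RPMI8226 parental array 1 stood apart at 9.54 beside 10.35 in array 2.

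Counted over the HIF list, 23 of 36 tested genes rose in all 3 lines and 0 fell in all 3, and 32 had a positive sign in each, which 11.3% of all genes had. The list median was 0.88. It held 43 genes, of which 36 could be tested; CA9 has no probe set of its own, and FUT11 is carried under its current symbol POFUT4, which rose by 0.54, 0.95 and 0.44 (± 0.08) and is counted outside the list. Of the 62 rises, 35 belong to at least 1 of the lists used here and 27, POFUT4 among them, to none. The list was chosen with earlier results of these data known and is no independent evidence of its direction. Some zinc finger genes outside all lists also rose. ZNF292 read 8.60 and 8.72 in the parental arrays of RPMI8226 and 9.36 and 9.27 in its HR arrays, 9.38 and 9.41 against 10.13 and 10.13 in KMS-11, and 10.07 and 10.06 against 10.85 and 10.84 in U266. RLF rose by 0.52, 0.60 and 0.63 (± 0.08), ZNF654 by 0.45, 0.82 and 1.01 (± 0.06) and ZNF160 by 0.38, 0.71 and 0.75 (± 0.08); these were chosen for their name after their values were seen. The kinase gene MAP3K13 rose by 0.68, 1.02 and 0.95 (± 0.06).

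**Figure D2:**
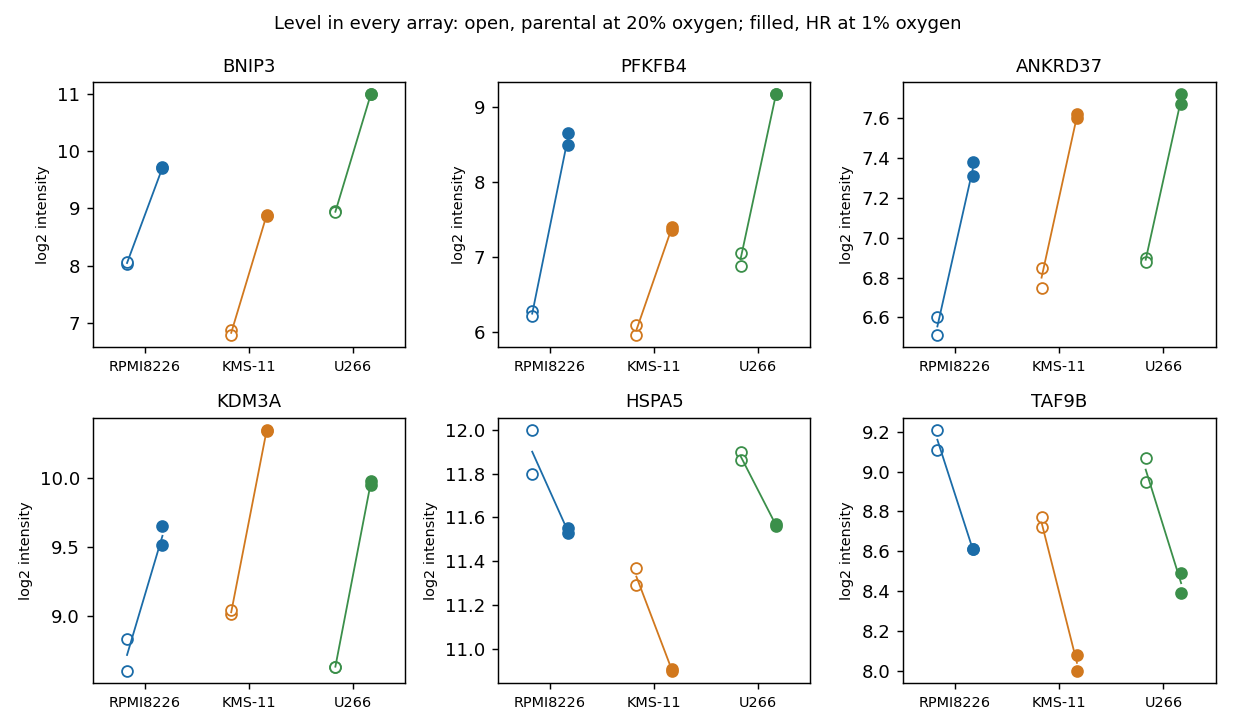
Log2 intensity of 6 genes in each of the 12 myeloma arrays, by line, with open points for parental arrays at 20% oxygen and filled points for HR arrays at 1% oxygen; lines join the group means and each panel has its own axis. For all 6 genes the filled points of a line do not overlap its open points, upward for BNIP3, PFKFB4, ANKRD37 and KDM3A and downward for HSPA5 and TAF9B.

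The shared falls were fewer and smaller than the rises, and 3 of them were ER chaperone genes. The 35 falls had a median change of −0.37, single genes ranged from −0.23 to −1.64, and 0 of them fell by 2-fold in each line, against 8 such rises. HSPA5, the ER chaperone BiP, fell by 0.36, 0.42 and 0.32 on the log2 scale (± 0.07), and its cochaperones DNAJB11 (−0.47, −0.28 and −0.29, ± 0.07) and SDF2L1 (−0.27, −0.45 and −0.21, ± 0.06) also fell. They were 3 of 26 tested unfolded protein response genes, of which 0 rose in all 3 lines. In the 12 fits that left out an array, HSPA5 kept its call in 8, DNAJB11 in 4 and SDF2L1 in 3. The list median was −0.08 and 9 members had a negative sign in each line, as 16.4% of all genes did.

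HSPA5 read 11.80 and 12 in the parental arrays of RPMI8226 and 11.53 and 11.55 in its HR arrays, 11.29 and 11.37 against 10.90 and 10.91 in KMS-11, and 11.90 and 11.86 against 11.57 and 11.56 in U266. It is among the brighter genes of these arrays and stayed bright in HR cells. HYOU1, an ER chaperone also known to respond to low oxygen, was at −0.31, −0.23 and −0.20 (± 0.06) and missed the threshold in U266 (adjusted p = 0.0566). ERO1A, the ER oxidase that is also in the HIF list, went the other way, at 0.26, 0.15 and 0.55 (± 0.06), and did not pass in KMS-11. XBP1, the transcription factor of the response, was at −0.04, 0.03 and 0.15 (± 0.06) and passed in no line.

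The HSPA5 promoter is shown because it is the only 1 of the 30 matched promoters of falls that holds the ER stress response element, CCAAT and 9 bases of any kind followed by CCACG, marked in capitals; it was searched on both strands, and the window is again the 250 bases before the RefSeq start (GRCh38.p14).
HSPA5, chr9:125241344-125241593, reverse strand: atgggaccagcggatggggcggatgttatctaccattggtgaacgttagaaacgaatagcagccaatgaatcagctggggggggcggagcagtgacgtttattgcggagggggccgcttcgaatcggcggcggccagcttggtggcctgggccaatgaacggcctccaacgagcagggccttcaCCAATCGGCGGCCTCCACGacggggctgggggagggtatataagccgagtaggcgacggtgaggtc
The element was found in 6 of the 25 matched promoters of the unfolded protein response list (24.0%), in 0.132% of those of the genes tested and in 0 of the 52 of the rises. DNAJB11 and SDF2L1 have no copy in this window in the spelling searched. The core HIF element, ACGTG or GCGTG, was found in 23 of the 25 promoters of the unfolded protein response list (92.0%), against 71.2% of the rises'.

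The other large falls had no common list. TAF9B, a subunit of the general transcription machinery, read 9.11 and 9.21 in the parental arrays of RPMI8226 and 8.61 and 8.61 in its HR arrays, 8.72 and 8.77 against 8.0 and 8.08 in KMS-11, and 9.07 and 8.95 against 8.39 and 8.49 in U266. It was the only 1 of the 35 falls that kept its call in each of the 12 fits that left out an array. KCNS3, a potassium channel subunit, fell by 1.47, 0.52 and 0.87 on the log2 scale (± 0.10), and REEP1, which shapes ER membranes, fell by 0.64, 0.42 and 1.02 (± 0.08). The transcription factor STAT5B fell by 0.79, 0.36 and 0.61 (± 0.08), and ETS2 fell by 0.44, 0.41 and 0.52 (± 0.08). BAMBI, a decoy receptor of the TGF-beta family, fell by 0.37, 0.54 and 1.02 (± 0.12). In the 12 fits KCNS3 and REEP1 kept their call in 10, STAT5B and ETS2 in 9 and BAMBI in 3. KCNS3 and ETS2 were above the filter level in 4 of the 6 groups, and REEP1 and BAMBI in 5.

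Signalling genes with smaller falls were the adenylate cyclase ADCY9 (−0.53, −0.56 and −0.34, ± 0.11), the CREB coactivator CRTC3 (−0.35, −0.44 and −0.66, ± 0.08), the Toll pathway kinase IRAK1 (−0.38, −0.32 and −0.29, ± 0.07) and the receptor NOTCH2 (−0.25, −0.27 and −0.28, ± 0.07). ADCY9 was above the filter level in 3 of the 6 groups and under it in all U266 arrays. In the 12 fits that left out an array, CRTC3 kept its call in 9, IRAK1 in 7, and ADCY9 and NOTCH2 in 2 each. Enzymes of mitochondrial metabolism among the falls, picked out after their values were seen, were CPT1A, the gate of fatty acid oxidation (−0.34, −0.26 and −0.40, ± 0.07), the propionyl-CoA carboxylase subunit PCCB (−0.53, −0.27 and −0.25, ± 0.07) and the aspartate aminotransferase GOT2 (−0.25, −0.25 and −0.24, ± 0.06). ABCC5, an efflux transporter, fell by 0.24, 0.27 and 0.20 (± 0.06), the only shared gene of the drug efflux list. CPT1A, PCCB, GOT2 and ABCC5 each kept their call in 4 of the 12 fits that left out an array. The tetraspanin gene TSPAN7 had the most unequal fall, from 9.53 and 9.64 to 5.31 and 5.29 in RPMI8226, from 8.27 and 8.19 to 7.83 and 7.84 in KMS-11, and from 10.64 and 10.58 to 10.38 and 10.35 in U266.

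**Figure D3:**
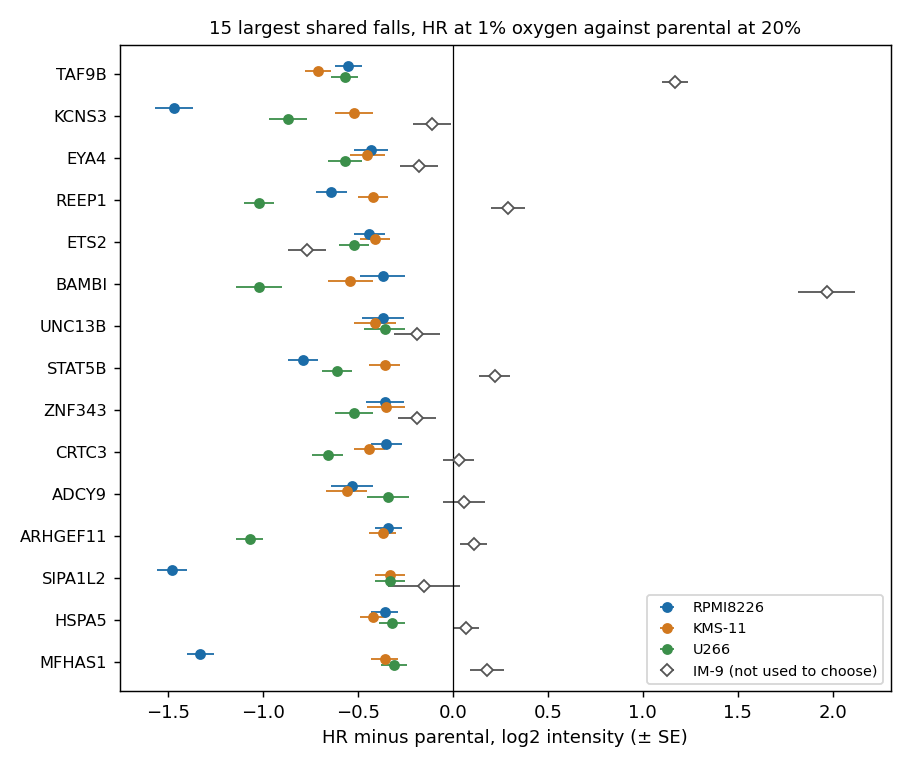
HR minus parental change (log2 intensity, ± SE from limma) of the 15 falls whose smallest change over the myeloma lines was largest, drawn as for the rises. The myeloma points lie to the left of 0, between −0.31 and −1.48; TAF9B and BAMBI lie at 1.17 and 1.97 in IM-9.

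How firmly the shared genes stand differed between the directions. Of the 62 rises, 37 kept their call in each of the 12 fits that left out 1 array, including all 20 with the largest changes; 25 lost it at least once. Of the 35 falls, 34 lost it at least once. Without KMS-11 parental array 1 or 2, or KMS-11-HR array 1 or 2, the number of shared falls was 3, 10, 8 and 4, and that of shared rises 44, 44, 48 and 43. Without U266 parental array 1 or 2, or U266-HR array 1 or 2, the falls were 16, 19, 16 and 14. When the largest of a gene's 3 p-values was adjusted once over all genes, 37 rises and 1 fall, TAF9B, passed.

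With the line as the unit, so that 3 differences carry each test, 0 genes were called higher and 0 lower across lines in limma (background 0% in each direction), and at an unadjusted p under 0.05 there were 251 higher (2.03%) and 344 lower (2.78%). BNIP3 came closest, at 1.93 ± 0.11 (adjusted p = 0.181). It was followed by VLDLR at 0.90 ± 0.08, ADM at 0.88 ± 0.08, ANKRD37 at 0.80 ± 0.07, ALDOC at 1.20 ± 0.11, ANXA1 at 0.98 ± 0.09, BHLHE40 at 1.19 ± 0.12, ZNF292 at 0.72 ± 0.07, KDM3A at 1.17 ± 0.12 and PFKFB4 at 1.96 ± 0.21, with adjusted p = 0.331 for each. These genes were higher in 3 of 3 lines. TAF9B had the smallest p-value among lower genes, at −0.61 ± 0.08 (adjusted p = 0.425, lower in 3 of 3 lines). AK4, with the largest mean change of the rises at 2.88, had an SE of 0.81 because its lines differed, and an adjusted p of 0.895.

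The size of many shared changes differed between the lines. By the F test over the 3 effects, 39 of the 62 rises and 10 of the 35 falls differed between lines (adjusted p under 0.05 in limma), where 32.4% of all genes did. AK4, a mitochondrial adenylate kinase, read 7.39 and 7.54 against 9.74 and 9.84 in RPMI8226, 6.07 and 6.0 against 7.05 and 7.08 in KMS-11, and 5.17 and 4.72 against 10.21 and 10.25 in U266. It was the dimmest in parental U266, below the filter level, and the brightest in U266-HR. HK2, TXNIP, PAM, SLC9A9 and S100A10 likewise had their largest rise in U266, as did 34 of the 62, against 16 in KMS-11 and 12 in RPMI8226. LGMN, a lysosomal protease, rose by 2.03 in KMS-11 and 1.84 in U266 but by 0.47 in RPMI8226 (± 0.07), where its parental level of 11.15 and 11.27 was already above the HR level of the other lines.

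Other shared genes changed by close amounts. ANKRD37 read 6.51 and 6.60 against 7.31 and 7.38 in RPMI8226, 6.75 and 6.85 against 7.60 and 7.62 in KMS-11, and 6.90 and 6.88 against 7.72 and 7.67 in U266, changes of 0.79, 0.81 and 0.80 (± 0.06) whose difference did not pass the F test (adjusted p = 0.982). For ADM (adjusted p = 0.669), VLDLR (adjusted p = 0.323) and ZNF292 (adjusted p = 0.524) it did not pass either, which does not show that the lines respond alike. Among the falls this held for HSPA5 (adjusted p = 0.707), ETS2 (adjusted p = 0.727) and NOTCH2 (adjusted p = 0.956).

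Most calls within a line were not shared with the others. 1387 genes were called higher in RPMI8226-HR, 347 in KMS-11-HR and 1266 in U266-HR, and 1966 (15.9%), 775 (6.26%) and 1106 (8.93%) were called lower. Of the 347 rises of KMS-11, 31.4% were also called higher in RPMI8226 (11.2% of all genes were), where they were 7.86% of the rises, and 36.0% in U266 (10.2% of all genes), where they were 9.87%. RPMI8226 and U266 shared 233 rises, 18.4% of those of U266, where 11.2% of all genes rose in RPMI8226. They shared 226 falls, 20.4% of those of U266, where 15.9% of all genes fell in RPMI8226. Opposite calls were found for 453 genes, 19.1% of all U266 calls. Of the 775 falls of KMS-11, 23.1% were also called lower in RPMI8226 (15.9% of all genes were) and 15.7% in U266 (8.93%). Across the 12390 genes the changes correlated at r = 0.10 between RPMI8226 and KMS-11, 0.03 between RPMI8226 and U266 and 0.14 between KMS-11 and U266, a description over genes, which are not independent. Of the 208 genes called in all 3 lines, 62 were higher and 35 lower in each. Over all genes tested, 11.3% had a positive and 16.4% a negative sign in each line. The other 111 of the 208 had signs that differed. Among them were HMGCS1, the first committed enzyme of the cholesterol route, GATM of creatine synthesis, the signalling regulator RGS1, the leukotriene cofactor ALOX5AP and the BCL2 family gene PMAIP1.

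**Figure D4:**
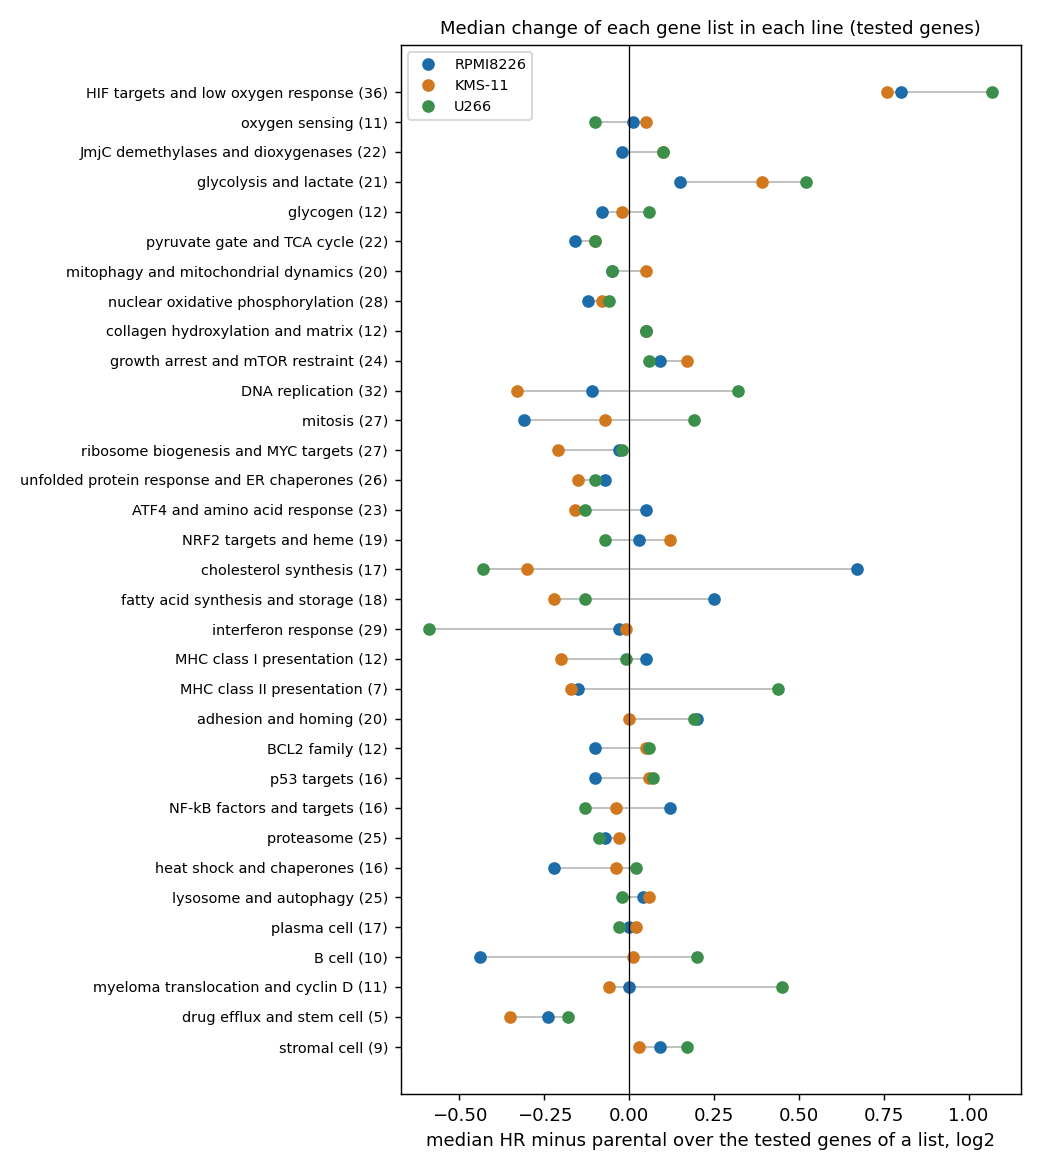
Median HR minus parental change (log2) of the tested genes of each list with at least 5 of them, with their number in brackets and a point for each line; grey bars span the lines, and where points coincide the last drawn hides the others. The HIF list lies at 0.76 to 1.07 in the 3 lines, while cholesterol synthesis, DNA replication and interferon genes lie on different sides of 0 or far from each other.

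Cholesterol synthesis and DNA replication genes moved in opposite directions in different lines. Of the 17 tested cholesterol synthesis genes, 16 rose and 0 fell in RPMI8226 (median 0.67), where 11.2% of all genes rose. In KMS-11 9 fell (median −0.30, with 6.26% of all genes lower) and in U266 13 (median −0.43, with 8.93% lower). In these lines 0 rose, and 0 of the 17 had the same sign in the 3 lines. HMGCS1 read 9.72 and 9.59 in the parental arrays of RPMI8226 and 11.64 and 11.81 in its HR arrays, 8.83 and 8.99 against 8.27 and 8.32 in KMS-11, and 10.76 and 10.70 against 9.73 and 9.72 in U266. Its HR arrays lay above the parental arrays in the first line and below them in the other lines, and the difference passed the F test (adjusted p = 2.7e-08). INSIG1, the feedback sensor of the pathway, was at 0.91, −0.47 and −0.66 (± 0.07), while its paralog INSIG2 rose in all 3 lines by 0.44, 0.46 and 1.06 (± 0.09).

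Of the 32 tested DNA replication genes, 10 fell and 1 rose, TYMS, in RPMI8226 (median −0.11), 23 fell and 0 rose in KMS-11 (median −0.33), and 25 rose and 0 fell in U266 (median 0.32). Of all genes, 15.9% fell and 11.2% rose in RPMI8226, 6.26% fell in KMS-11 and 10.2% rose in U266. MCM2, a subunit of the replicative helicase, read 9.83 and 9.88 against 9.18 and 9.25 in RPMI8226, 9.12 and 9.17 against 8.83 and 8.85 in KMS-11, and 8.98 and 9.0 against 9.43 and 9.49 in U266. The licensing factor CDC6 was at −0.61, −0.47 and 0.55 (± 0.08), and its effects differed between lines (adjusted p = 4.43e-05 for the F test). Mitosis genes showed 15 of 27 lower in RPMI8226 (median −0.31), where 15.9% of all genes fell. In U266 9 were higher (median 0.19), where 10.2% of all genes rose, and 0 were shared in either direction. Of the 29 tested interferon genes, 20 fell and 1 rose in U266 (median −0.59), where 8.93% of all genes fell. In RPMI8226 7 fell and 6 rose (15.9% and 11.2% of all genes), and in KMS-11 1 fell and 0 rose (6.26% and 2.8%).

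In the remaining lists the counts of shared genes were 0 or 1; since only 0.5% and 0.282% of all genes were shared in each direction, such counts say nothing about lists of this size. In the lysosome and autophagy list LGMN was the only 1 of 25 shared, in adhesion and homing CCR1 was the only 1 of 20, and in the ATF4 and amino acid list VLDLR was the only 1 of 23. The ribosome biogenesis (27 tested), MHC class I (12), MHC class II (7), BCL2 family (12), p53 target (16), NF-kB (16), proteasome (25), heat shock (16), fatty acid (18), plasma cell (17), B cell (10), T and NK cell (4), myeloid (1) and stromal (9) lists held 0 shared genes in either direction. Proteasome genes, the target of a main class of myeloma drugs, had a median of −0.05 and plasma cell genes of −0.04.

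IM-9 took no part in choosing the shared genes and gives a separate measurement of them. Of the 62 rises, 41 were also called higher in IM-9-HR, where 13.9% of all genes were, 5 were called lower and 16 did not pass. Of the 35 falls, 10 were called lower in IM-9-HR, where 21.3% of all genes were, 10 were called higher (13.9% of all genes) and 15 did not pass. For the falls this is 28.6% in either direction. The rises in the HIF list were called higher in IM-9 in 13 of 23 cases (56.5%), with a median of 0.34 against 1.17 in the myeloma lines. The rises outside it were called higher in 28 of 39 cases (71.8%), with medians of 0.46 and 0.62. These include the glycolysis genes ALDOC, GPI, LDHA and PGK1 as well as POFUT4, so the split does not part HIF targets from other genes.

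Tested directly, the IM-9 effect differed from the mean of the myeloma effects for 42 of the 62 rises and 19 of the 35 falls. Of these rises, 36 were smaller in IM-9 and 6 larger. Over all genes, 30.3% passed this test. The other side of the contrast is the myeloma effects by which the genes were chosen, which favours a smaller effect in IM-9. These counts, and the medians above, are therefore only a description. For the glycolytic regulators the IM-9 effect was much smaller. PFKFB3 was at 0.15 in IM-9, 1.58 ± 0.08 below the myeloma mean (adjusted p = 5.79e-08), and PFKFB4 at 0.22, 1.74 ± 0.10 below it (adjusted p = 1.87e-07). VLDLR was at 0.03 and BHLHE40 at 0.15 in IM-9, with differences of −0.87 ± 0.09 and −1.04 ± 0.09. NDRG1, a differentiation and stress gene, rose more in IM-9, by 3.13 against 1.26, 1.58 and 2.23, and CEP128, a centriole gene, rose by 1.70 against 0.35, 0.35 and 1.16. For KDM3A, PDK1 and MAP3K13 the difference did not pass (−0.17 ± 0.10, −0.08 ± 0.08 and 0.11 ± 0.07).

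Some shared genes went the opposite way in IM-9. ANKRD37 read 9.52 and 9.65 in the parental arrays of IM-9 and 8.87 and 9.01 in its HR arrays, so that it fell from a parental level above every myeloma array. DDIT4 fell by 0.54 ± 0.10 there, and the neuronal regeneration-related gene NREP read 7.99 and 8.16 against 6.84 and 6.83. PIK3C3, the autophagy lipid kinase, was at −0.22 and the metallothionein MT2A at −0.67. In the other direction TAF9B read 8.97 and 9.14 in parental IM-9 and 10.25 and 10.19 in IM-9-HR, and BAMBI 5.69 and 5.24 against 7.50 and 7.37. HSPA5 was at 0.07 in IM-9 and did not pass, which differed from the myeloma mean by 0.44 ± 0.08 (adjusted p = 0.00109), and SDF2L1 fell there by 0.27 on the log2 scale. IM-9 is a single line, so that a difference of that line cannot be told apart from a difference of its cell type.

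**Figure D5:**
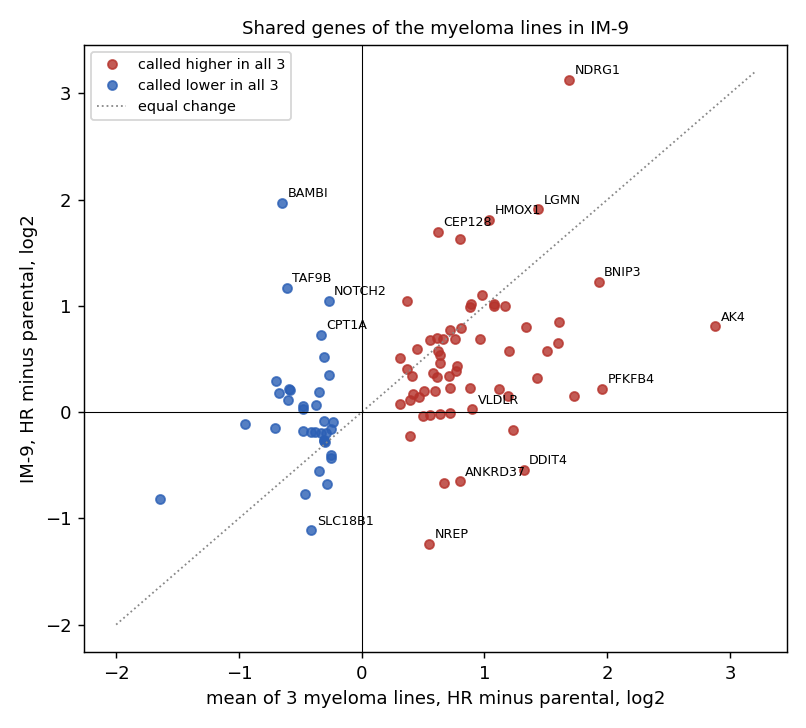
HR minus parental change in IM-9 (y axis, log2) against the mean change over the 3 myeloma lines (x axis, log2) for the 62 shared rises (red) and 35 shared falls (blue); the dotted line marks equal change. Most red points lie above 0 but under the dotted line. A place under the line is favoured by choosing the genes on their myeloma values. NREP, ANKRD37 and DDIT4 lie below 0, and TAF9B, BAMBI and NOTCH2 lie above 0 among the falls.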

How the data were processed

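The deposited table holds log2 intensities of 33297 Affymetrix probe sets, already summarised and normalized by the authors; per the submitters' processing notes the program was Expression Console 1.3.0, and how it corrected background and normalized is not given in the sources used here. The design text names another array version than the platform table, whose identifiers match the table's and which was used for gene names. Of the probe sets, 19460 carry 1 gene symbol, 1754 several and 12083 none listed here; 19429 of the 19460 matched RefSeq (GRCh38.p14). They stand for 18417 genes. Where a gene had several probe sets (769 genes), that of highest mean over 16 arrays stood for it, and genes above 6.267, the median of the 12 myeloma arrays, in at least 2 of these were tested, 12390 in all. Array medians lay between 6.22 and 6.34. Probes shared between near-identical copies were not checked. For arrays, their number limits the precision.

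Tests used limma 3.58.1 (lmFit and eBayes, 2-sided) in R 4.3.3 with Benjamini-Hochberg adjustment over all genes tested and a threshold of 0.05. The test across lines used 6 means, each over the 2 arrays of 1 group, with line as a block. The tests within lines used all 12 arrays in 1 fit, so a gene has the same SE in each line. The F test compared the 3 within-line effects, and the IM-9 contrast used 16 arrays. Errors are standard errors from these fits, with n = 2 arrays per group within lines and n = 3 lines across them. Alternatives were another normalization, filters, prior settings, probe set averaging, array weights, blocks, a joint threshold, and leaving out each array or line. The fits were tested on simulated data.

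Genes named are the 10 smallest p-values in each direction across lines, the 20 largest rises and 15 largest falls among shared genes by their smallest change over lines, list members that are shared, lead across lines or have opposite calls, the 8 shared calls with the most unequal signs, and shared genes that differ most from or oppose IM-9. Some others are named with a remark or to fill out a list. Members and lists were chosen with earlier results of these data known.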

Additional observations from a re-analysis of the deposited data

Results flagged for a closer look

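The following results concern effects that differed between lines under the same contrast. The HR effect differed between the 3 myeloma lines for 4010 genes by the F test in limma, among them 39 of the shared rises and 10 of the shared falls. The range over the lines was 4.25 for AK4, 2.53 for HK2, 2.05 for TXNIP and 4.03 for TSPAN7 on the log2 scale, each past the F test.

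Shared rises that were called lower in IM-9, with the difference past its test, were ANKRD37 (IM-9 minus mean myeloma effect −1.45), DDIT4 (−1.85), NREP (−1.79), PIK3C3 (−0.62) and MT2A (−1.34). Shared falls that were called higher in IM-9, with the difference past its test, were TAF9B (1.78), REEP1 (0.99), BAMBI (2.61), STAT5B (0.81), DNAJB11 (0.55), SLC23A2 (0.79), FUCA1 (0.83), CPT1A (1.06), NOTCH2 (1.31) and PIK3R3 (0.62).

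Probe sets left out of the gene table also held shared calls. Of 1248 bright probe sets that carry several symbols, 10 were called the same way in all 3 lines, 7 higher and 3 lower (0.801%). Of 5129 that the platform table does not list, 1 was, upward (0.0195%).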

How the results depend on the processing

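In the fits on group means, which take the line as the unit, 0 genes passed across lines under every setting run. These include the 3 fits that left out a line and the fit with IM-9 added. The fit on single arrays with the replicate number as a block, which treats arrays of a line as units, called 84 (58 higher, 26 lower). With line by condition as a random block, which allows the 2 arrays of a group to be correlated, 60 were called (52 and 8). This fit also counts single arrays and uses the same correlation for every gene, so it does not take the line as the unit either. Of the shared genes reported, 48 rises and 8 falls were among those 60. Shared rises numbered 56 to 73 under the other normalization, filters, prior and probe set settings, 8 when a change of at least 1 was asked in each line and 37 with the p-values adjusted jointly. Shared falls, 35 in the report, were 23 with quantile normalization, 14 with no filter, 55 with the trend and robust prior, 1 with joint adjustment and 0 with a change of at least 1. Leaving out 1 array gave 43 to 71 shared rises, 3 to 34 shared falls, 329 to 1256 calls in KMS-11 (1122 with all arrays) and 1431 to 2531 in U266 (2372). Without KMS-11 parental array 1 or 2 the KMS-11 calls were 361 and 386, and without KMS-11-HR array 1 or 2 372 and 329. Without U266 parental array 1 or 2 the U266 calls were 1501 and 1524, and without U266-HR array 1 or 2 1431 and 1449. The cause of these moves was not tested, beyond the loss of a replicate. No setting reversed the mean direction of a shared gene, but this is no measure of firmness. For all 62 rises and 35 falls the HR and parental arrays did not overlap in any line. Leaving out 1 array could therefore not reverse a direction. Of all genes tested, 2.61% had the HR arrays above the parental arrays in each line, and 4.91% had them below.

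The labels do not say whether the arrays' numbers pair the samples, and the main fits used no replicate block. Deviations of same-numbered arrays correlated at 0.207 in RPMI8226, 0.0766 in KMS-11 and −0.0547 in U266, which cannot settle it. With the replicate block 60 rises and 31 falls were shared, of which 55 and 24 are among those reported.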
